A study of Mus musculus with 11 samples.

Results

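The rows of non-coding RNA that overlap 3 windows of the mouse genome (mm10) are described here. The windows hold, with their flanks, the long non-coding RNA genes Sox2ot (chr3:34104270-34682619, plus strand) with Sox2, Six3os1 (chr17:85600651-85618398, minus strand) with Six3, and Miat (chr5:112213228-112229395, minus strand). Every unique feature overlapping a window was taken, on either strand and whatever its level, which gave 53 of 36097 features. Of these, 49 lay in the Sox2ot window and 4 in the Six3os1 window. No row overlapping the Miat window was among those analysed here, so Miat is not described further. The lowest mean of any listed feature was 2.00 normalised counts, so features of lower level are absent.

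The libraries came from whole retina of mice at postnatal day 21, and were made from RNA depleted of polyadenylated transcripts. There were 5 wild-type libraries and 6 libraries labelled as knockout of Nrl, the transcription factor that commits photoreceptor precursors to the rod fate. The labels give no strain, no allele and no pooling of animals. Replicates have numbers and no named animals, so the spread behind each p-value is that between libraries, some of which may be technical.

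Sox2ot is a long gene whose intron contains the whole of Sox2, a transcription factor of retinal progenitors, Müller glia and some amacrine cells. Both genes are transcribed from the same strand, and several promoters and splice forms of Sox2ot are known. Six3os1 lies on the strand opposite to Six3 (chr17:85613608-85629302), a homeobox factor of the developing eye and forebrain. The 2 annotated genes overlap, and the start of Six3os1 at position 85618398 lies within Six3. Six3os1 RNA is known to modulate Six3 activity in the developing retina. Miat, also known as Gomafu or RNCR2, is a nuclear RNA studied in retinal cell specification.

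No tested member passed the test between the genotypes. Of the 53 members, 22 had a mean of at least 5 normalised counts over the 11 libraries and were tested, and 31 lay under that limit. limma called 0 of the 22 at an adjusted p below 0.05, while it called 28.1% of the 21395 features tested in all, 15.6% higher and 12.6% lower in the knockout. At an unadjusted p below 0.05 there was 1 member, against 36.1% of all tested features. On the whole reads of 9 libraries, edgeR called 0 members and 26.8% of all features, and DESeq2 called 0 members and 25.6%; at an unadjusted p below 0.05 they gave 1 member and 0 members. Most members are of low level, where calls were fewer: 21.4% of features with a mean from 5 to under 20 were called, and 38.9% of those with a mean of at least 20.

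Sequence is shown for the parts of the loci that frame the members and for the 2 members that lie within an annotated exon of the opposite strand, where GENCODE M21 transcripts (GRCm38) give the bases. The first exon of Sox2ot-202 (chr3:34196751-34197029) starts 1851 bp before the first member of a long series of intronic features. The last exon of Sox2ot-209 (chr3:34682434-34682619) ends where Sox2ot ends in the annotation, 183 bp before the first of 5 features that lie past that end. MSTRG.40761 (chr17:85612043-85612308) is the plus-strand member of highest mean at Six3os1. MSTRG.55571 (chr3:34298687-34298798) is an intronic member of Sox2ot, and lies opposite an exon of Gm38505, a long non-coding RNA gene on the minus strand. All 4 are on the plus strand, written 5′ to 3′, and no base is marked by a capital.
First exon of Sox2ot-202: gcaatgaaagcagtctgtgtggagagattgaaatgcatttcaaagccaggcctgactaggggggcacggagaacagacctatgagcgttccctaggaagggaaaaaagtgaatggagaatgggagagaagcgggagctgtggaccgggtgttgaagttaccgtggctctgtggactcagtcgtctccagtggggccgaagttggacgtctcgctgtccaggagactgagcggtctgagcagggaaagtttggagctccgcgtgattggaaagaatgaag
Last exon of Sox2ot-209: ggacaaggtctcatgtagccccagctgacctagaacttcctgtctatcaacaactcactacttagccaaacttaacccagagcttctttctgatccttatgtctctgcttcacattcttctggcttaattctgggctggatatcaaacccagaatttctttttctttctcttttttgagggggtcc
MSTRG.40761: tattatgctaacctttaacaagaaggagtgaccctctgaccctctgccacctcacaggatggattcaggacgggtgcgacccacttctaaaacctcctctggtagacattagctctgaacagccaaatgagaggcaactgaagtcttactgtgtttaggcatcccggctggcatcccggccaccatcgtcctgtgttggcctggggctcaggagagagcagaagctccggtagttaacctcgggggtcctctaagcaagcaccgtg
MSTRG.55571: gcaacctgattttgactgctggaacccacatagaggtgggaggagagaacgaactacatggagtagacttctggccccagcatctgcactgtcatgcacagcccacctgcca
The polyadenylation hexamers AATAAA and ATTAAA, searched on the transcript's own strand only, are not in the last 100 bases of Sox2ot-209. Over 29882 annotated long non-coding transcripts of the same build, 25.1% and 10.4% hold them in their last 100 bases. The exons and members shown have 54.1% G and C for Sox2ot-202, 43.5% for Sox2ot-209, 54.1% for MSTRG.40761 and 54.5% for MSTRG.55571.

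The libraries as a whole held 3238184 to 4150460 reads in listed features in the wild-type and 3374221 to 4876429 in the knockout. A feature within Nrl but on the opposite strand, MSTRG.28375, lay between 33.3 and 55.5 normalised counts in the wild-type, and in the knockout was at 0 in 5 libraries and at 0.758 in 1. The labels do not say which part of Nrl is deleted. Features overlapping the rod markers summed to 3778 to 6272 in wild-type and 560.4 to 963 in knockout libraries, with 30 lower and 4 higher of 41 tested. Features at cone markers summed to 372.4 to 414 and 1269 to 1967, with 17 higher and 2 lower of 26. Features at Müller glia markers summed to 33.3 to 61.2 and 19.5 to 42.4, with 0 higher and 1 lower of 3 tested. Those at amacrine markers summed to 171 to 358 and 121 to 240.3, with 0 higher and 1 lower of 5. Tested features stood at only 2 of 13 listed Müller glia genes and 3 of 11 amacrine genes, against 13 of 16 rod and 8 of 12 cone genes. All tested features of these lists lie on the strand opposite the marker gene, so they do not measure the marker's own RNA. All 5 tested features at glial stress genes rose, and their list summed to 239 to 406 and 813 to 1475. In bulk retina, fewer cells of a type and less RNA per cell cannot be told apart.

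All 49 members of the Sox2ot window are on the plus strand, the strand of Sox2ot and Sox2, and none was on the minus strand. None overlaps Sox2 (chr3:34650405-34652461) and none covers a Sox2ot exon. They fall into 2 runs separated by 343582 bp. The first run holds 43 features within 1 intron of 311263 bp (chr3:34197230-34508492), from 1851 to 140847 bp after the start of Sox2ot-202. The second run holds 6 features at the end of the gene, of which MSTRG.55598 lies in an intron and 5 lie past the annotated Sox2ot end at position 34682619.

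**Figure D1:**
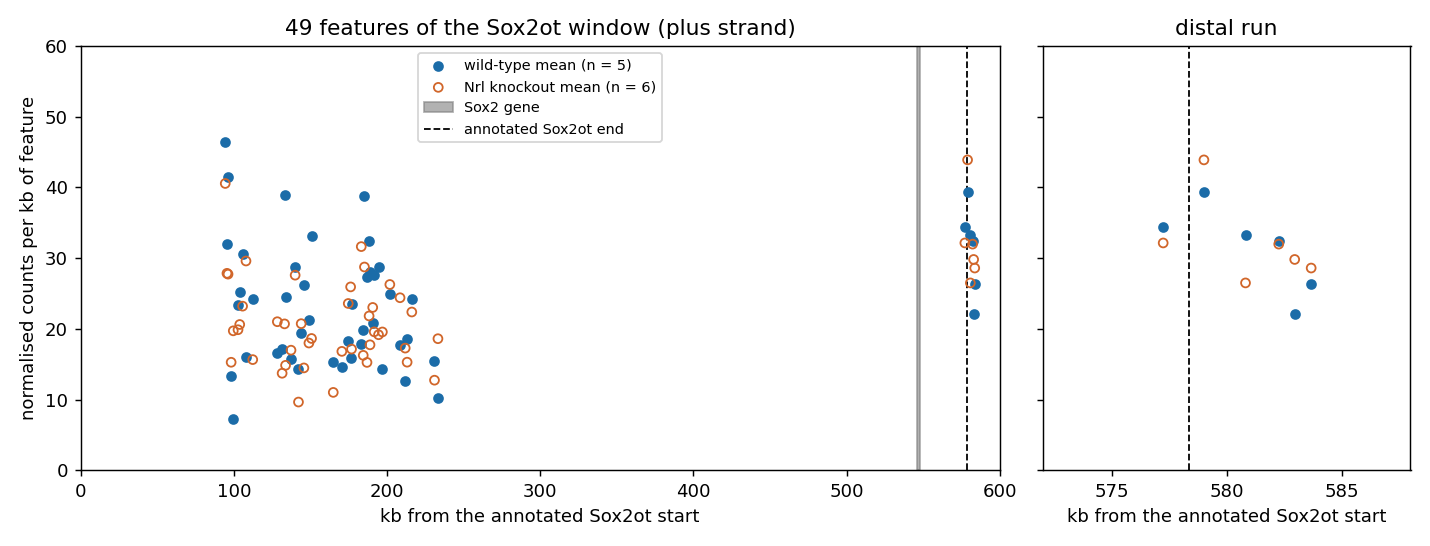
Level per kb of each of the 49 Sox2ot-window features in normalised counts (y axis) by distance from the annotated Sox2ot start in kb (x axis), with the whole window and an enlarged view of the gene's end. Filled points are wild-type means (n = 5) and open points knockout means (n = 6); the grey band is Sox2 and the dashed line the annotated end of Sox2ot, and the 43 intronic features sit apart from the 6 at the end.

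The 6 features at the end of Sox2ot had the higher median level per length. Their median level was 30.9 normalised counts per kb, with a range from 26.3 to 41.8, and that of the 43 intronic features was 21.2, with a range from 11.8 to 43.2. Values per feature run from 2.18 to 62.2 normalised counts, and the lengths from 103 to 2104 bp with a median of 164 bp in the window. Across the 49 features, longer ones had higher means (Spearman's rho 0.79, a description over features that share the same 11 libraries). Since no listed feature has a mean under 2.00, short features of low level per kb are absent, which bears on levels per kb of the shorter intronic features.

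MSTRG.55601 (chr3:34684038-34686141), 2104 bp long, had the highest mean of all members, starting 1419 bp past the Sox2ot end. Its wild-type libraries held 83.7, 69.6, 65.9, 63.8 and 66.6 normalised counts, and its knockout libraries 56.1, 62.6, 51.5, 48.95, 57.6 and 57.6. Every wild-type library was above every knockout library, the only tested member of which this holds. Over all tested features, 20.2% had groups that do not overlap and 9.13% had them with the knockout lower. The means were 69.9 ± 7.96 (SD, n = 5) and 55.7 ± 4.87 (SD, n = 6). The log2 difference, knockout minus wild-type of log2(normalised count + 1), was -0.32 with a standard error of 0.18 and a 95% interval from -0.69 to 0.055. limma gave an adjusted p of 0.217, so the difference did not pass the test. In the authors' deposited table the log2 fold change of MSTRG.55601 is -0.32 with a standard error of 0.19 and an adjusted p of 0.272.

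MSTRG.55600 (chr3:34682802-34683758) lies between the Sox2ot end and MSTRG.55601. It held 32.9, 32.0, 38.0, 33.9 and 51.4 normalised counts in the wild-type libraries and 40.6, 39.4, 40.7, 39.4, 43.2 and 48.8 in the knockout libraries. The groups overlap only through wild-type 5, which is the highest of the 11; the other 4 wild-type libraries are below all 6 knockout libraries. The means were 37.7 ± 8.05 (SD, n = 5) and 42.0 ± 3.63 (SD, n = 6), a log2 difference of 0.17 with an interval from -0.25 to 0.59 (limma adjusted p = 0.604).

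MSTRG.55598 (chr3:34681181-34681832) is the intronic feature of the run, 330 bp after a Sox2ot exon. Its wild-type libraries held 20.6, 19.8, 19.5, 26.1 and 26.2 normalised counts and its knockout libraries 12.5, 18.2, 28.2, 21.1, 24.3 and 21.5. The ranges overlap, with both the lowest and the highest library among the knockouts. The means were 22.4 ± 3.44 (SD, n = 5) and 21.0 ± 5.36 (SD, n = 6), a log2 difference of -0.12 with an interval from -0.63 to 0.39 (limma adjusted p = 0.782). Its sign changed without knockout 1 and in the count tests, to 0.011, 0.047 (edgeR) and 0.013 (DESeq2).

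The other features past the end gave overlapping groups. MSTRG.55604 was at 18.3 ± 1.28 (SD, n = 5) and 19.9 ± 4.25 (SD, n = 6) normalised counts, with a log2 difference of 0.084. MSTRG.55603 was at 5.25 ± 2.96 and 7.09 ± 3.17, with a difference of 0.39 and an interval from -0.47 to 1.26. MSTRG.55602, under the mean limit, was at 3.83 ± 2.33 and 3.77 ± 1.47. Summed over the 6 features, the wild-type libraries lay at 168.7, 144, 154, 149 and 171 normalised counts and the knockout libraries at 143, 146, 159, 143, 154 and 150.4. These sums overlap and vary little, with a coefficient of variation of 6.43% over the 11 libraries against 7.94% from counting error alone. MSTRG.55601 made up 44.5% ± 4.44 (SD, n = 5) of this sum in the wild-type and 37.4% ± 3.71 (SD, n = 6) in the knockout; this share was not tested.

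**Figure D2:**
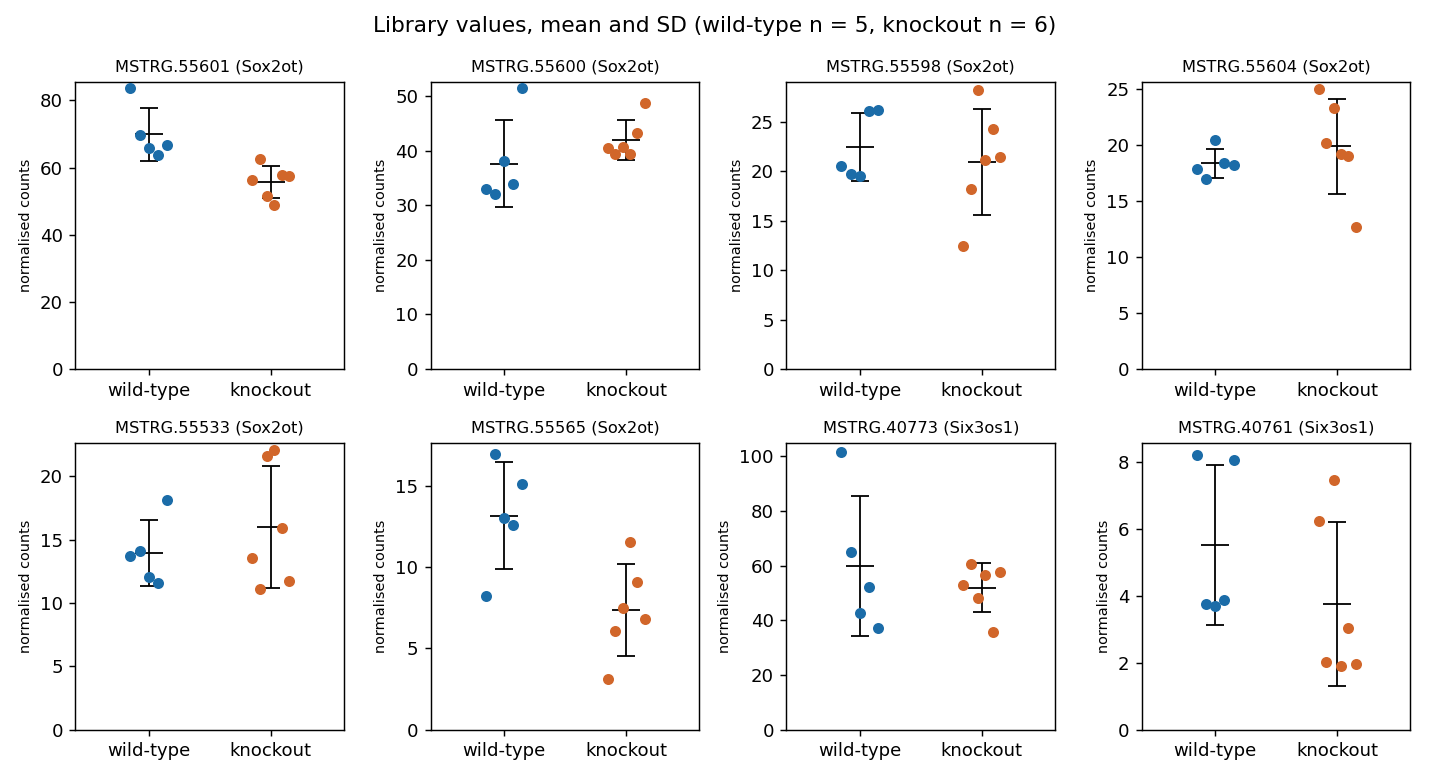
Normalised counts (y axis) of some of the members named in the text, 1 point per library by genotype (x axis), with the mean and SD (wild-type n = 5, knockout n = 6). The members are MSTRG.55601, MSTRG.55600, MSTRG.55598, MSTRG.55604, MSTRG.55533, MSTRG.55565, MSTRG.40773 and MSTRG.40761. MSTRG.55601 has no overlap between genotypes, with wild-type libraries from 63.8 to 83.7 and knockout libraries from 48.95 to 62.6.

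The 43 intronic features were low, with means from 2.18 to 15.1 normalised counts, and 16 were tested. Their summed mean was 86.2 over the 17 features within 50 kb of the start of Sox2ot-202, 68.1 over 17 from 50 to 100 kb, and 44.0 over 9 from 100 to 150 kb. Median levels per kb in those stretches were 21.5, 21.2 and 17.2 normalised counts, and their summed lengths 4484, 3151 and 2556 bp. On the opposite strand, 9 of the 43 lie within Gm38505 and 34 face no annotated gene. MSTRG.55533 (chr3:34201999-34203045), 1047 bp long, had the highest mean of the run, at 13.9 ± 2.59 (SD, n = 5) and 15.99 ± 4.83 (SD, n = 6), a log2 difference of 0.15. MSTRG.55530 (chr3:34198602-34198749), the first of the run, had the highest level per kb, 43.2 normalised counts per kb.

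MSTRG.55565 (chr3:34290967-34291448), named after its values were seen, had the largest difference among the tested members. Its wild-type libraries held 8.23, 16.9, 13.0, 12.6 and 15.1 normalised counts and its knockout libraries 3.12, 6.06, 7.47, 11.5, 9.10 and 6.83. The groups overlap, since wild-type 1 lies below knockout 4 and knockout 5. The means were 13.2 ± 3.27 (SD, n = 5) and 7.35 ± 2.84 (SD, n = 6), and the log2 difference was -0.81 with a standard error of 0.33 and an interval from -1.48 to -0.14. limma gave an adjusted p of 0.0683, and it is the 1 member with an unadjusted p below 0.05. It passed the threshold without wild-type 1 (log2 difference -0.95, limma adjusted p = 0.0325) and without knockout 4 (-0.94, adjusted p = 0.0393). Over the 11 ways of leaving out 1 library its adjusted p ran from 0.0325 to 0.164. In the authors' deposited table the log2 fold change of MSTRG.55565 is -0.84 with an adjusted p of 0.138.

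The other 15 tested intronic features had log2 differences from -0.63 (MSTRG.55567) to 0.46 (MSTRG.55577), all with overlapping groups. MSTRG.55577 (chr3:34315955-34316352) held 2.74, 6.59, 2.78, 1.93 and 11.1 normalised counts in the wild-type libraries and 4.16, 2.02, 9.13, 11.5, 7.58 and 6.83 in the knockout libraries. Wild-type 5 is among the highest of the 11 and knockout 2 among the lowest, and both are left out of the count tests. On the 9 libraries its difference was 1.01 in limma (adjusted p = 0.0966), 1.15 in edgeR (adjusted p = 0.104) and 1.14 in DESeq2 (adjusted p = 0.168), and it is the member with an unadjusted p below 0.05 in edgeR. With all libraries limma gave an adjusted p of 0.511. Leaving out 1 library gave 0.76 without wild-type 5, 0.71 without knockout 2, 0.30 without knockout 4 and 0.25 without wild-type 4. MSTRG.55571, shown above, was at 3.23 ± 2.39 (SD, n = 5) and 2.15 ± 2.80 (SD, n = 6) normalised counts, under the limit and listed at 0 in 3 knockout libraries.

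Summed over the 43 features, the wild-type libraries held 118, 233, 191, 237 and 277 normalised counts and the knockout libraries 109, 135, 225, 273, 215 and 167. Both groups span nearly the same range, with means of 211 ± 60.5 (SD, n = 5) and 187 ± 61.1 (SD, n = 6). The coefficient of variation over the 11 libraries was 29.8%, against 6.90% from counting error alone. At the gene's end it was 6.43%; the difference in spread was not tested. The 3 libraries lowest in the run, knockout 1, wild-type 1 and knockout 2, were also the 3 lowest in the summed level of 1727 other intronic features on the strand of genes of at least 100 kb (mean under 20), a set chosen after this spread was seen. Relative to 1000 normalised counts of that sum, the run stood at 18.7 ± 2.51 (SD, n = 5) in the wild-type and 17.3 ± 3.93 (SD, n = 6) in the knockout, with a coefficient of variation of 18.4% over the 11 libraries. The part of this shared low level in the member values was not tested.

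**Figure D3:**
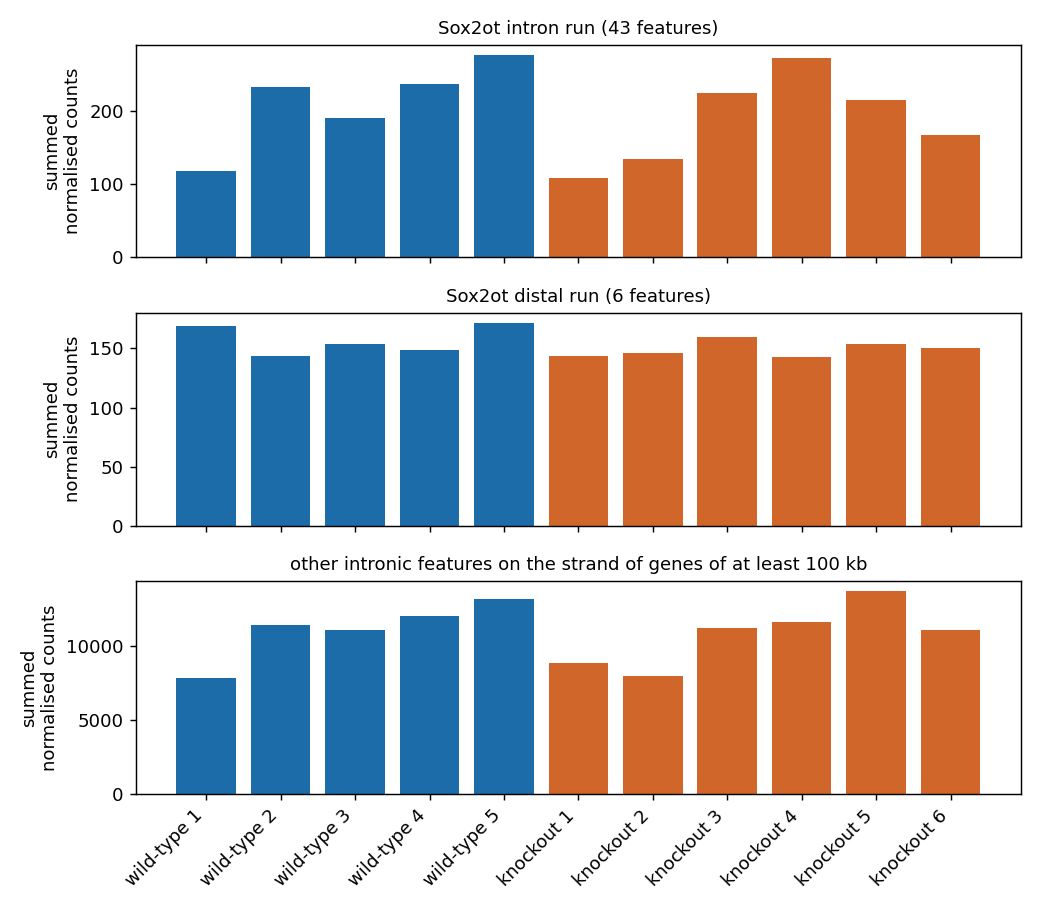
Summed normalised counts (y axis) in each of the 11 libraries (x axis; bars coloured by genotype and starting at 0) for the intronic Sox2ot features, the features at the end of Sox2ot, and other introns of long genes. The intronic sums run from 109 to 277, and the sums at the end from 143 to 171.

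At Six3os1 the 4 members are 1 feature on its own strand (minus) and 3 on the strand of Six3 (plus). MSTRG.40773 (chr17:85622258-85623769), 1512 bp long on the minus strand, lies opposite the Six3 intron, with 43 bp over a Six3 exon. It is 3860 bp upstream of the annotated Six3os1 start, with the antisense gene Gm28528 (chr17:85619326-85621001, minus strand) between them, and overlaps neither. Its wild-type libraries held 101, 64.9, 42.7, 52.2 and 37.3 normalised counts and its knockout libraries 53.0, 60.6, 48.1, 56.6, 35.6 and 57.6. Wild-type 1 is the highest of all and the other wild-type libraries lie within or near the knockout range. The means were 59.7 ± 25.6 (SD, n = 5) and 51.9 ± 9.06 (SD, n = 6), a log2 difference of -0.13 with an interval from -0.62 to 0.36 (limma adjusted p = 0.758). Without wild-type 1 the difference was 0.084. At 36.7 normalised counts per kb over all libraries, its level per length lay between those of MSTRG.55600 at 41.8 and MSTRG.55601 at 29.6.

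The 3 plus-strand members at Six3os1 were under the mean limit and were not tested. MSTRG.40761, within a Six3os1 exon on the opposite strand, held 8.23, 3.76, 3.71, 3.87 and 8.07 normalised counts in the wild-type and 6.24, 2.02, 7.47, 1.92, 3.03 and 1.95 in the knockout, with means of 5.53 ± 2.39 (SD, n = 5) and 3.77 ± 2.45 (SD, n = 6). MSTRG.40776 (chr17:85634705-85634812), 5403 bp past the Six3 end, was at 3.20 ± 2.196 and 1.92 ± 1.08. MSTRG.40777 (chr17:85657353-85657711), 28051 bp past that end, was at 5.50 ± 3.60 and 3.06 ± 2.58. Groups overlap for each of them. Their sum was 14.2 ± 4.32 (SD, n = 5) and 8.76 ± 3.97 (SD, n = 6), also with overlap, since the wild-type libraries run from 9.08 to 20.6 and the knockout libraries from 4.88 to 14.9. Values this low rest on few reads: 3 reads were worth 2.28 to 4.11 normalised counts, depending on the library. The labels do not say whether counting used strand, so reads of these features may include reads of the gene on the other strand.

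Neither the difference in response between the loci nor that between the strands of Six3os1 passed its test. The log2 ratio of MSTRG.55601 to MSTRG.40773 was 0.31 ± 0.43 (SD, n = 5) in the wild-type and 0.12 ± 0.30 (SD, n = 6) in the knockout, a difference of -0.19 (two-sided exact permutation test over 462 splits, p = 0.383, Benjamini-Hochberg adjusted over 2 pairs 0.422). The log2 ratio of MSTRG.40773 to MSTRG.40761 was 3.20 ± 0.66 (SD, n = 5) and 3.60 ± 0.82 (SD, n = 6), a difference of 0.40 (the same exact test, p = 0.422, adjusted 0.422). The smallest p this design can give is 0.00216. Each pair takes 1 feature per locus or strand. With all members of the locus and strand summed, the differences were -0.010 between the loci and 0.57 between the strands, given as values with no test. The Sox2ot window has no member on the minus strand, so it gives no comparison of strands.

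Over the 22 tested members, 15 differences were below 0 and 7 above, from -0.81 to 0.46. Their median was -0.14 against -0.020 over all tested features, and 51.5% of all tested features were below 0. The median absolute difference was 0.20 for the members and 0.44 for all tested features. With all 11 libraries, 0 of the 22 reached an absolute difference of 1, which 23.6% of all tested features did; on the 9 libraries of the count tests 1 did, MSTRG.55577, at 1.01 in limma, 1.15 in edgeR and 1.14 in DESeq2. A difference that misses the threshold does not show equal levels. The 95% interval stayed within 2-fold either way for 9 of the 22 members, against 39.6% of all tested features, and reached beyond it for the other 13. From the estimate to either end, the interval measured 0.84 at the median for the members and 0.67 for all. For the 31 members under the limit, fitted with no filter, limma called 0, against 21.1% of all 36097 features in that fit. It gave 1 unadjusted p below 0.05, differences from -0.78 to 1.32 with a median of -0.21, and a lowest adjusted p of 0.114. The highest difference was that of MSTRG.55534, at 1.13 ± 2.52 (SD, n = 5) and 3.06 ± 2.03 (SD, n = 6) normalised counts and at 0 in 4 wild-type libraries. Of all 53 members, 25 were listed at 0 in at least 1 library, 2 of them tested. The values on either side of the limit were 4.82 for MSTRG.55532 and 5.09 for MSTRG.55550.

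**Figure D4:**
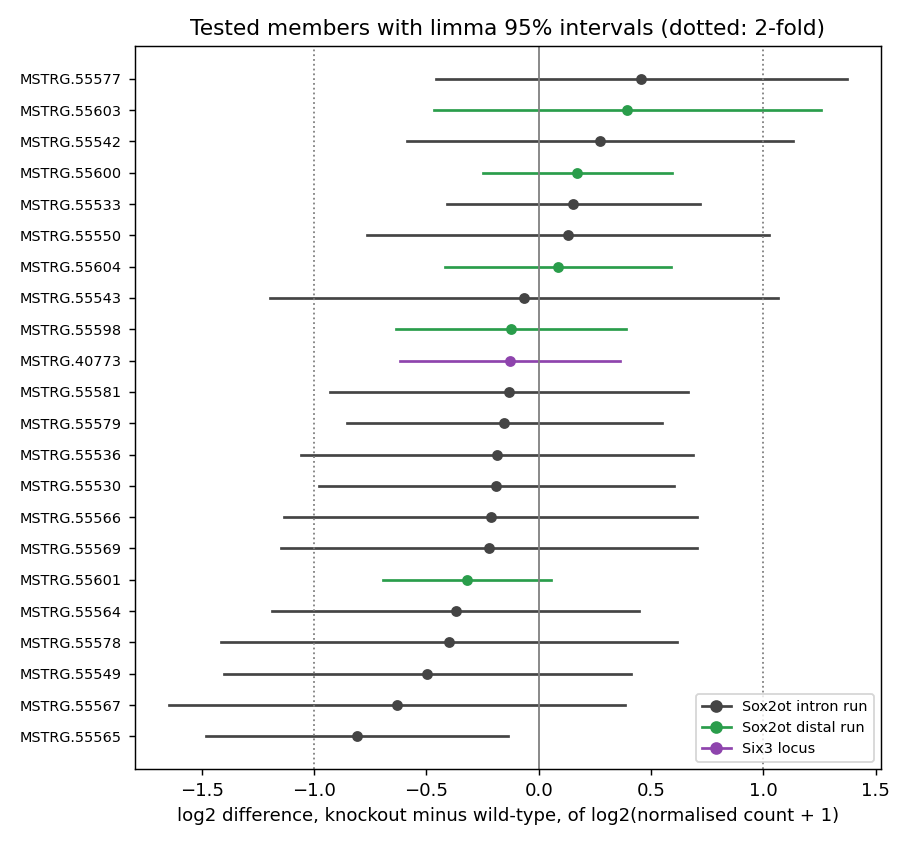
Log2 difference, knockout minus wild-type, with its limma 95% interval (x axis) for each of the 22 tested members (y axis), coloured by run; dotted lines mark 2-fold either way. Differences run from -0.81 to 0.46, and only the interval of MSTRG.55565 leaves out 0.

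**Figure D5:**
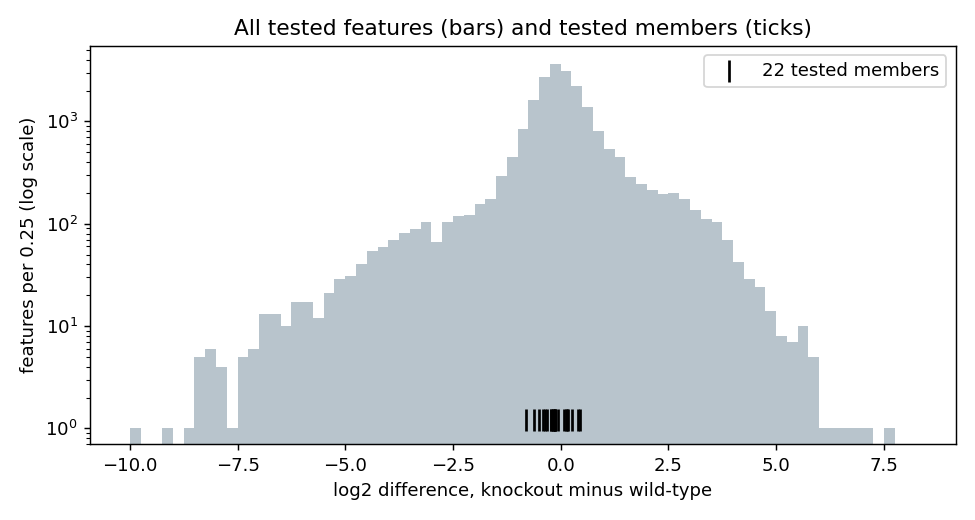
Number of features (y axis, log scale) by log2 difference, knockout minus wild-type (x axis), for the 21395 tested features, with the 22 tested members as ticks. The ticks lie between -0.81 and 0.46, inside the centre of the distribution.

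The libraries in which MSTRG.55601 and MSTRG.40773 were high or low were compared with those of other features with a mean of at least 20. For MSTRG.55601 the highest correlations of log2 values over the 11 libraries were with MSTRG.4872 (Pearson's r 0.95, chromosome 1, outside annotated genes), MSTRG.21617 (0.94, chromosome 12) and MSTRG.67253 (0.94, chromosome 5, opposite Fam193a). For MSTRG.40773 they were with MSTRG.78857 (0.94, chromosome 7, opposite Zfp940), MSTRG.53357 (0.93, chromosome 2) and MSTRG.32212 (0.92, chromosome 15, outside annotated genes). The 3 features most like MSTRG.55601 were themselves called lower in the knockout (log2 differences -0.91, -0.70 and -1.52, limma adjusted p = 0.00236, 0.00813 and 4.66e-05). Those most like MSTRG.40773 were not called. The correlations describe libraries that share depth, scaling and genotype, and each feature was picked for being among the highest of all such features.

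Features at other long non-coding RNA genes of retina or brain gave a share of calls that depended on the setting. Of 66 tested features at 9 such genes, 6 rose and 13 fell, 28.8% against 28.1% of all features. edgeR called 6 higher and 5 lower (16.7% against 26.8% of all), DESeq2 5 and 7 (18.2% against 25.6%), limma on the same 9 libraries 6 and 5 (16.7% against 26.4%), and limma with equal library totals 5 and 6 (16.7% against 26.7%). With no filter, limma called 7 higher and 6 lower of 78 features (16.7% against 21.1% of all). Among these settings, falls outnumbered rises in DESeq2 and with equal totals, but not in edgeR, limma on the 9 libraries or with no filter. They also outnumbered rises with TMM factors (6 higher, 14 lower), a mean of at least 20 (5 and 20) and pseudocounts of 0.5 (6 and 14) and 4 (7 and 12). The same held with the replicate number as a block on libraries 1 to 5 (7 and 26), and with any 1 library left out. The excess of falls over rises thus depended on the setting. Of the 66, 37 lie at Snhg14, 13 at Otx2os1 and 3 at Vax2os, so they are not independent. At Vax2os, a gene antisense to the eye-patterning factor Vax2, MSTRG.74899 lay on the gene's own strand. It held 60.4 ± 13.5 normalised counts (SD, n = 5) in the wild-type and 3.22 ± 1.94 (SD, n = 6) in the knockout, and its log2 difference was -3.97 (limma adjusted p = 2.01e-10). MSTRG.74898 and MSTRG.74902, on the strand opposite Vax2os, had higher wild-type levels and fell further. MSTRG.74898 went from 2117 ± 399 to 5.32 ± 1.36 (log2 difference -8.40), and MSTRG.74902 from 273 ± 54.6 to 2.30 ± 2.80 (-6.70).

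The last list joins regulators of retinal progenitors and glia, such as Pax6, Notch1 and Meis1, with genes of RNA-binding proteins known to bind Miat RNA, of which Celf3 alone had tested features. Of its 14 tested features at 8 genes, 1 rose and 3 fell, 28.6% against 28.1% of all features. Without Celf3, 1 rose and 1 fell of 11 features at 7 genes, both opposite the gene. At Notch1, a receptor that keeps progenitors undifferentiated, MSTRG.47920 rose. It held 2.55 ± 0.96 normalised counts (SD, n = 5) in the wild-type and 54.2 ± 10.9 (SD, n = 6) in the knockout. Its log2 difference was 3.97 (limma adjusted p = 4.52e-12). At Meis1, a homeobox gene of progenitors and amacrine cells, MSTRG.12431 fell from 187 ± 48.2 to 89.1 ± 28.8, a log2 difference of -1.09 (adjusted p = 0.000419). edgeR and DESeq2 called MSTRG.47920 and MSTRG.12431 and no other of the list. MSTRG.12435 and MSTRG.12436, also opposite Meis1, were not called. MSTRG.12435 held 65.9 ± 17.6 in the wild-type and 88.5 ± 28.0 in the knockout, a log2 difference of 0.39 (limma adjusted p = 0.233). That of MSTRG.12436 was -0.065 (limma adjusted p = 0.917). At Celf3, also on the opposite strand, MSTRG.57407 fell by 1.17 and MSTRG.57409 by 0.70 on the log2 scale in limma (adjusted p = 0.0061 and 0.0239), and neither was called in edgeR or DESeq2. The third Celf3 feature, MSTRG.57405, held 8.80 ± 5.02 in the wild-type and 16.3 ± 6.08 in the knockout, a log2 difference of 0.88 (limma adjusted p = 0.0565). The deposited table places the Sox2ot members in chromosomal domain 440, and the Six3os1 members in a stretch between domains (interTAD 1002). For both it lists 0 higher or lower mRNAs.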

How the data were processed

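Stranded single-end reads of 50 bp were sequenced, per the labels' protocols. The authors deposited signal values, which are DESeq2-normalised counts as the table is named. They also deposited the log2 fold changes, a Wald score (not used) and p-values of their own comparison. TopHat2 2.0.10, Cufflinks 2.2.1, Cuffdiff, mm9 and mm10 stand in the submitters' processing notes; the counter was not given there. The table's 36180 lines hold 36097 features, since 83 have 2 identical lines. Its starts count from 0: 209 equal an annotated GENCODE M21 start after adding 1 and 22 as written, so 1 was added.

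The main test was limma 3.58.1 in R 4.3.3 on log2(value + 1), two-sided, with features of mean at least 5 and Benjamini-Hochberg adjustment over all 21395; an adjusted p below 0.05 was a call. The fit was also run on simulated counts with the same dispersion for every feature, a simpler setting than these data, and its outcome is not used here. Whole reads were recovered from the deposited values within 0.001 for all 11 libraries. The count tests, edgeR 4.0.16 and DESeq2 1.42.0, used 9 of them. Knockout 2 and wild-type 5 were left out, since a read there is worth 1.01 normalised counts, almost exactly 1. The pseudocount shrinks log2 differences of features with few reads, and floors and counting errors cover counting error only. The rule for named members was the 3 of highest mean per locus and strand and any called; the others named, as the rest of the run at the Sox2ot end, for their sequence, or as ends of a range or limit, were chosen after their values were seen; for likeness, the 3 features on another chromosome or over 1000000 bp away with the highest correlation. The members and lists were chosen with earlier results of these data known.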

Additional observations from a re-analysis of the deposited data

How the results depend on the processing

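The count of called members stayed at 0 with pseudocounts of 0.5 and 4, no filter, a mean of at least 20, edgeR, DESeq2, limma on 9 libraries, equal totals and TMM factors. It ran from 0 to 1 over the 11 ways of leaving out 1 library, the 1 being MSTRG.55565. The count over all features was 3350 at a mean of at least 20, where 8266 features were tested, and 5481 to 6241 with 1 library left out. For the long non-coding RNA genes the count was 11 in edgeR, 12 in DESeq2, 11 in limma on the same 9 libraries, 11 with equal totals, 33 with the replicate block against 17 on those libraries without it, and 11 to 20 with 1 library left out; the lowest came without wild-type 2, and the cause was not tested. For the progenitor and glial regulators it was 2 in edgeR, 2 in DESeq2 and 3 to 5 with 1 library left out. The log2 difference of MSTRG.40773 ran from -0.27 to 0.084 with 1 library left out, turning without wild-type 1. That of MSTRG.55598 ran from -0.21 to 0.011, turning without knockout 1, and was 0.047 in edgeR and 0.013 in DESeq2. The difference between loci ran from -0.34 to -0.065 and that between strands from 0.12 to 0.61 with 1 library left out.

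With the replicate number as a block on libraries 1 to 5, 6932 features were called, against 5720 on those libraries with no block, and 0 members either way. The log2 ratio differences under the block were -0.17 (exact sign-flip permutation p = 0.313) and 0.25 (p = 0.563). The numbers were not taken to pair the samples, since the labels give no shared animal or batch. Deviations of same-numbered libraries correlated at 0.294, 0.00135, 0.123, 0.0512 and 0.273, and 1 of 5 wild-type libraries correlated best with its own number. Whether the numbers mark a shared batch was not tested. The limma fit of libraries 1 to 5 and of the 9 libraries was added after seeing the data.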
